A study of Homo sapiens with 6 samples.

Results

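The numbered long intergenic non-coding RNAs described here were the rows of the deposited count table whose symbol runs from LINC00001 to LINC00999 and whose counts over the 6 libraries summed to at least 60, without LINC00602. Of 404 such numbered rows among 35036 rows in the table, 164 held 0 counts in every library, 156 summed to between 1 and 59, and 84 reached 60. Setting LINC00602 aside left 83 RNAs. The members were chosen by this summed count and by name, so their presence in these cells is a description. LINC00602 held 66 counts in all, 3, 3 and 1 in the control libraries and 25, 21 and 13 after SFPQ knockdown. Just inside the threshold were LINC00689 with 62 counts, LINC00856 with 63 and LINC00243 with 72. Just outside it were LINC00992 with 57, LINC00589 with 56, and LINC00524 and LINC00240 with 54 each.

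The study compared U-2OS cells, an established human osteosarcoma line, transfected with a control siRNA (siCtrl, 3 libraries) or with siRNA against SFPQ (siSFPQ, 3 libraries). Both groups received actinomycin D, an intercalator that blocks transcription by RNA polymerases. The labels give neither its dose nor how long it was applied, nor how many siRNAs were used. All values below are therefore from cells under transcriptional stress, with no group free of the drug. The labels do not say whether the 3 libraries of a group came from separate cultures, so the p-values measure only the spread between these libraries, which may be technical.

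Numbered LINC symbols are given to long non-coding RNAs that lie between protein-coding genes and have no better-established name, so the members share a naming convention and not a pathway. Most are spliced, polyadenylated RNAs, and several act in trans as RNA scaffolds, affect a neighbouring gene, or carry a short open reading frame. SFPQ is a nuclear RNA-binding protein of paraspeckles and nucleoplasm that takes part in splicing and in transcription of long genes.

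The table listed long non-coding RNAs and related rows. SFPQ itself, its partner NONO and the coding osteoblast genes RUNX2, SP7, SPARC, COL1A1, ALPL and BGLAP were not rows of the table used here. Neither the knockdown nor the bone lineage was therefore checked in these libraries. Table totals ran from 1385532 to 1533974 counts in siCtrl and from 1298658 to 1599566 in siSFPQ. Long non-coding RNAs typical of other cells were scarce: ESRG, LINC-ROR and LINC00678 of pluripotent cells, LINC00892 and MIR142HG of lymphoid cells and the neural MIR124-2HG were at 0 in all 6 libraries. LINC00461 and LINC00599, also on the neural list, were not rows of the table, so for neural cells only MIR124-2HG could be read. LINC00861, another lymphoid RNA, had 7, 12 and 7 counts in siCtrl and 3, 5 and 8 in siSFPQ. In the liver and endoderm list, LINC00261 had 14, 9 and 8 counts against 7, 7 and 6, and LINC01554 had at most 3 in any library. The exception was the B-lymphocyte RNA LINC00926, a member described below. In bulk RNA, fewer cells expressing a gene and less RNA per cell cannot be told apart.

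Counts were scaled to CPM, counts per 1000000 of a library's total over the 6325 genes that passed a filter on low counts. That total was adjusted by trimmed-mean (TMM) normalisation. CPM here is therefore relative to non-coding RNA counts and not to all RNA. The library kit is labelled stranded, but counts of at least 1 pair of overlapping rows were nearly equal on the 2 strands: MALAT1 had 72563 counts and its antisense row TALAM1 had 72552. Reads from a member and from a gene overlapping it on either strand can therefore not be told apart. Of the 83 members, 10 overlapped coding exons of GENCODE release 29, judged by that release's own exons of each member. The 4 members absent from that release were judged by their listed span. Coding exons lay somewhere within the listed span of 22 members, among them LINC00667 (ZBTB14), LINC00973 (DCBLD2) and LINC00115 (OR4F16). Whether these add reads to the members was not tested. Another row of the table overlapped 67 members, and 14 overlapped a row with more counts than their own. Rows of at least 60 counts that overlap a member are given where its values are described.

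To show what the leading members' start regions look like, the RefSeq promoter window (GRCh38.p14, 250 bases before to 50 after the start site) is printed for a head-to-head pair of members that both rose, for the 3 largest rises and for the 3 largest falls whose RefSeq start lies within 1 kb of the start listed in the table. Capitals mark matches on either strand to GGGCGG (the GC box, bound by Sp-family factors) and CCAAT (the CCAAT box, bound by NF-Y), and overlapping matches run together. The pair LINC00526 (chr18:5237980-5238279, minus strand) and LINC00667 (chr18:5237850-5238149, plus strand) had RefSeq start sites 71 bases apart, and their windows shared 170 bases. The RefSeq start of LINC00526 lies 1361 bases from its start listed in the table, and that of LINC00667 lies 274 bases from its own.
LINC00526: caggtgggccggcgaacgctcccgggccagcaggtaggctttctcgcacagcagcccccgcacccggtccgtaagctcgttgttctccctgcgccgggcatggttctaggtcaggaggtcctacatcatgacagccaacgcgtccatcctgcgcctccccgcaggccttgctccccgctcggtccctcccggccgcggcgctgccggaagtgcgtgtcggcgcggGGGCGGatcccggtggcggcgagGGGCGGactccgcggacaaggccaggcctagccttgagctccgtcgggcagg
LINC00667: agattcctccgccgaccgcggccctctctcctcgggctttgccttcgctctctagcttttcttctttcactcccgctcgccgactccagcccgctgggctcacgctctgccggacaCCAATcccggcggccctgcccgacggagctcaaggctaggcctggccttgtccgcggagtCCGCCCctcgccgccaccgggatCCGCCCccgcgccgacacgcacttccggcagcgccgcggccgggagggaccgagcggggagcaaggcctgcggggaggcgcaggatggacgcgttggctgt
The rises were LINC00235 (chr16:527358-527657, minus), LINC00173 (chr12:116533172-116533471, plus) and LINC00857 (chr10:80207460-80207759, plus).
LINC00235: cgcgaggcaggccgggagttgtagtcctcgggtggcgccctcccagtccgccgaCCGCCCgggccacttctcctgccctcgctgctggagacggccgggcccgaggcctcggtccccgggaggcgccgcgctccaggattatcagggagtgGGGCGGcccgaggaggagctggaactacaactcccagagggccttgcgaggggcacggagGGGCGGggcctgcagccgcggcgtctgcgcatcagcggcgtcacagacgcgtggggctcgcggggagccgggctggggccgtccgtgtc
LINC00173: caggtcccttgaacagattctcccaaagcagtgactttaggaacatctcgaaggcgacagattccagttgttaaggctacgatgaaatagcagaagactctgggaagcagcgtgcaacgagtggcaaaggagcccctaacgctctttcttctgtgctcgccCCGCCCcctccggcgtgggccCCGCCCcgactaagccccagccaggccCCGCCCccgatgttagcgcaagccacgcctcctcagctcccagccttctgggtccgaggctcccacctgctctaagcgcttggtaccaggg
LINC00857: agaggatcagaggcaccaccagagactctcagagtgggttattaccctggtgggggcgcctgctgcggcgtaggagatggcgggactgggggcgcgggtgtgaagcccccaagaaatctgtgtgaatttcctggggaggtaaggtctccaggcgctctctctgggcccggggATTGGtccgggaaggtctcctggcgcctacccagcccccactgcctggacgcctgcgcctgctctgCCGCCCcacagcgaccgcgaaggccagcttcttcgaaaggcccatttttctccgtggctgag
The falls were LINC00472 (chr6:71420696-71420995, minus), LINC00641 (chr14:21206851-21207150, minus) and LINC00408 (chr13:18905189-18905488, plus).
LINC00472: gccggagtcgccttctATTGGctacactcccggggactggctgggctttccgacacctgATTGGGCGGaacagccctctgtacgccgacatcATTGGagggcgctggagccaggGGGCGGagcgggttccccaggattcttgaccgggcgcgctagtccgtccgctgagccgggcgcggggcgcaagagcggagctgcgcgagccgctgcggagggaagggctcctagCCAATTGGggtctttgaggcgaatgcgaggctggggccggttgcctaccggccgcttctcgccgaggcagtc
LINC00641: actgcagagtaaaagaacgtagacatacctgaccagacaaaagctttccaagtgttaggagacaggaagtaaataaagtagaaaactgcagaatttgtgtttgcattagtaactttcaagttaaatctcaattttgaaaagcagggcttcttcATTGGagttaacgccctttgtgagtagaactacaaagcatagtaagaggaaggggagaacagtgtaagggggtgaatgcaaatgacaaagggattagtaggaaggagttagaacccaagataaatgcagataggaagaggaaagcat
LINC00408: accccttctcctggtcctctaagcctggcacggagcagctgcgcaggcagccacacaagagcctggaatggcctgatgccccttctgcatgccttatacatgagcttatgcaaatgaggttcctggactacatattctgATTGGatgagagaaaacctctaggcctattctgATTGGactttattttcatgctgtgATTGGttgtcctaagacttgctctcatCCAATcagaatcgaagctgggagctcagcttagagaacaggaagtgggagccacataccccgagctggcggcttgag
The GC box was matched in the windows of the pair and of all 3 rises, and in 1 of the 3 falls, LINC00472. The CCAAT box was matched in all 3 falls, in LINC00857 and in LINC00667. These few windows do not stand for the calls as a whole. Over all member windows, the GC box was in 10 of 21 rises, 3 of 12 falls and 12 of 28 that did not pass. The CCAAT box was in 9 of 21 rises, 5 of 12 falls and 12 of 28 that did not pass. The shares of all members' windows that hold these motifs are given at the end beside those of all promoters.

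The numbered RNAs held 1.05% to 1.08% of the table's counts in the siCtrl libraries and 1.16% to 1.18% in the siSFPQ libraries. On the CPM scale, which has a different denominator, their summed level was 11132 ± 158 CPM in siCtrl and 11641 ± 137 CPM in siSFPQ (SD, n = 3 each). Without the most abundant member, LINC00963, it was 10084 and 10365 CPM. Levels were uneven. Mean CPM ran from 7.13 to 1162 with a median of 62.3, and the 6 most abundant members held 36.3% of all member counts.

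Per kilobase of listed exon length, LINC00452 was the highest member in siCtrl, at 156 ± 14.9 CPM per kb, and 131 ± 16.7 in siSFPQ. It overlaps 2 rows on its own strand, ENSG00000274766 with 3865 counts and ENSG00000293677 with 2488. Next came LINC00839 (78.2 ± 2.01 CPM per kb, n = 3), LINC00165 (77.3 ± 8.23) and LINC00963 (68.5 ± 3.65), of which LINC00839 and LINC00165 did not differ beyond their SD. LINC00342 (48.3 ± 3.67) and LINC00294 (47.8 ± 3.70) were also within their SD of each other. LINC00342 is overlapped by ENSG00000290897, with 1000 counts, and LINC00294 overlaps coding exons of CSTF3 on the other strand. The median member was at 8.73 CPM per kb and the lowest, LINC00887, at 0.469, so the members' levels per length spread over more than 2 orders of magnitude.

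**Figure D1:**
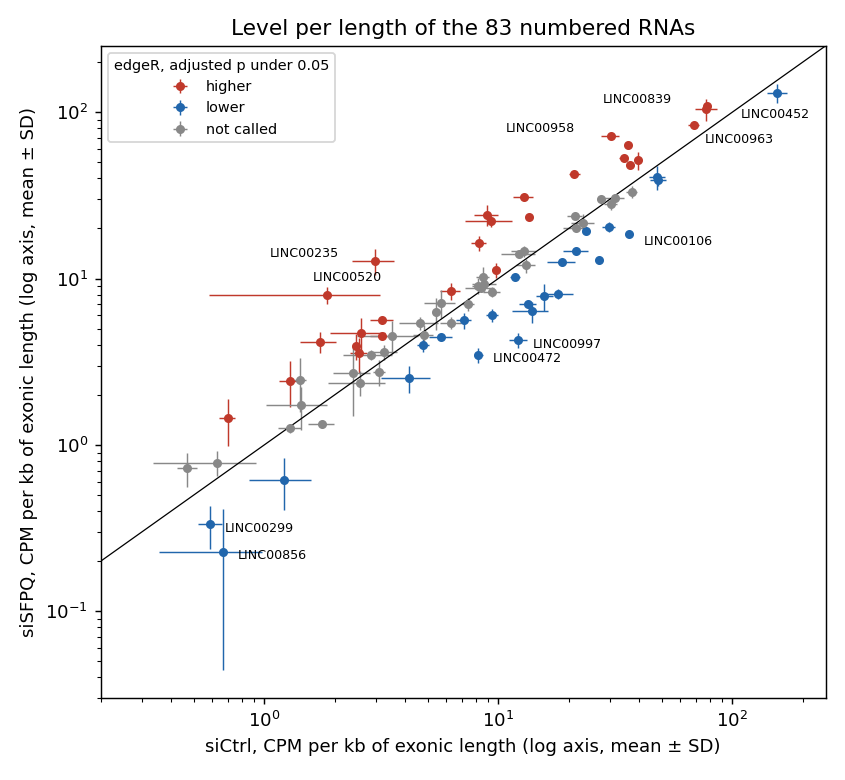
Level of each member per kilobase of listed exon length, siCtrl on the x axis against siSFPQ on the y axis (CPM per kb, mean ± SD, n = 3, both log axes), coloured by call, with the line of equal level. LINC00452 stands highest at 156 CPM per kb in siCtrl, and the lowest member, LINC00887, is at 0.469.

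After SFPQ knockdown the numbered RNAs moved both ways. Of the 83, 26 rose, 24 fell and 33 did not pass the test (edgeR quasi-likelihood test, Benjamini-Hochberg adjusted p under 0.05 over all 6325 genes tested). Among members whose groups did not overlap, the largest rises were LINC00235, LINC00520 and LINC00173 and the largest falls LINC00997, LINC00472 and LINC00648. The 26 rises are 31.3% of members, where 24.5% of all tested genes rose and 24.7% of the 6097 tested genes with at least 60 counts. The 24 falls are 28.9%, against 24.0% of all tested genes and 24.3% of those with at least 60 counts. All 83 members passed the filter on low counts.

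The log2 fold changes of the 26 rises ran from 0.21 to 2.10 with a median of 0.81, and those of the 24 falls from -1.52 to -0.21 with a median of -0.66. Members that did not pass ran from -0.39 to 0.74. The median of all 83 was 0.14, against 0.01 over all tested genes, with 45 positive and 38 negative. That median was 0.07 without siSFPQ replicate 1, and 0.09 without siCtrl replicate 2 or without siSFPQ replicate 2. With libraries scaled by plain totals it was 0.21, a scaling that moved the median of all tested genes to 0.07. Between single siCtrl and siSFPQ libraries, the median difference in log2 CPM ran from -0.003 to 0.121 over members. Over all tested genes it ran from -0.001 to 0.017. At a log2 change of at least 1, 9 members rose, a setting at which 6.51% of tested genes with at least 60 counts rose, and 6 fell, against 5.04%. The 3 libraries of each group did not overlap for 51 members (61.4%), against 54.4% of those genes. DESeq2, a second count model, called 18 rises and 16 falls, with 13.5% and 14.3% of genes with at least 60 counts called, and no member was called in opposite directions by any setting run.

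**Figure D2:**
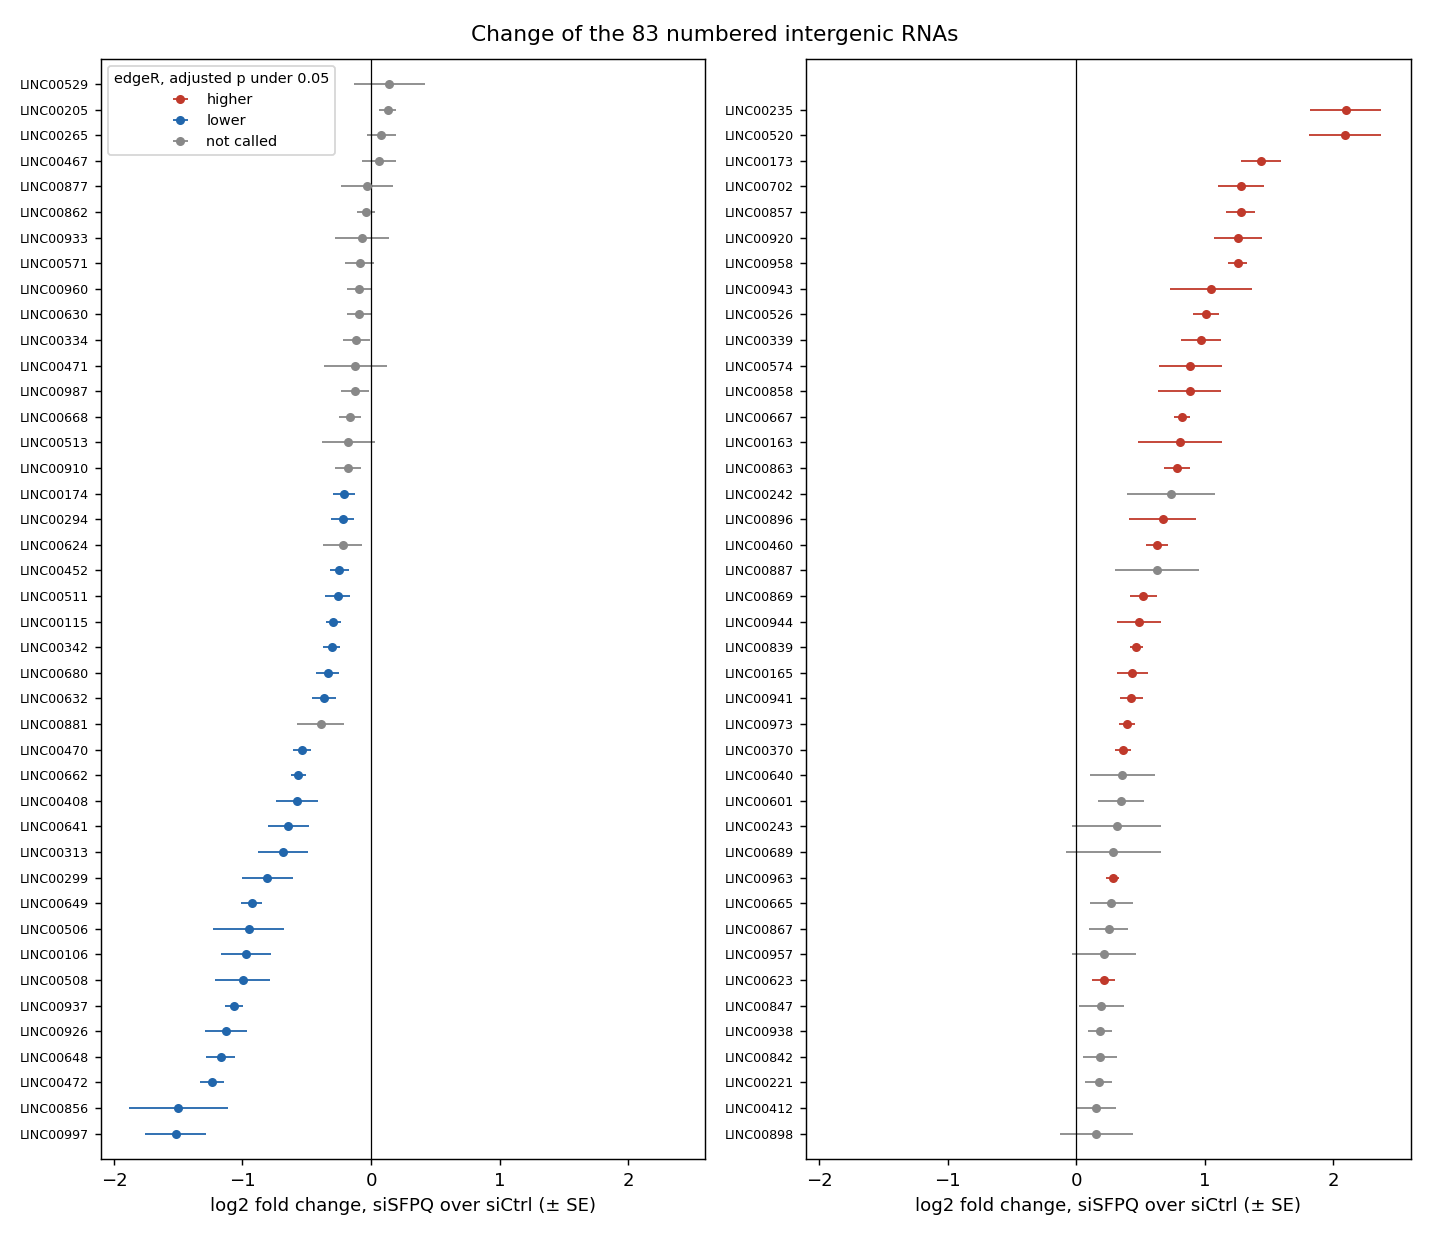
Log2 fold change (siSFPQ over siCtrl) of each of the 83 members, in order, with bars of 1 standard error of the fit and colour by call. Rises reach 2.10 (LINC00235), falls reach -1.52 (LINC00997), and 33 members do not pass the test.

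The increases at the top began with members that were scarce in control cells. Members were kept on counts summed over both groups, so an RNA scarce in either group could enter through the other. An RNA equally scarce in both groups could be left out. Large changes among scarce members therefore follow in part from the count threshold, and their scarcity in control cells is not a separate result. LINC00235 (ENSG00000277142, chromosome 16, 525155 to 527407, minus strand) starts 310 bases from CAPN15, a calpain-family gene that runs the other way. It had 8, 9 and 11 counts in siCtrl and 40, 37 and 51 in siSFPQ. In CPM these were 5.71, 6.11 and 8.23 in siCtrl and 30.5, 23.0 and 33.0 in siSFPQ. Each siSFPQ library was above every control, and the log2 change was 2.10 (SE 0.27, edgeR adjusted p = 3.2e-13).

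LINC00520 (ENSG00000258791, chromosome 14, 55781132 to 55796731, minus strand), also called LEENE, is known in endothelium for enhancing expression of endothelial nitric oxide synthase. It had 2, 12 and 13 counts in siCtrl and 39, 47 and 37 in siSFPQ, which is 1.43, 8.15 and 9.73 CPM against 29.8, 29.3 and 23.9. The siCtrl replicate 1 library was low beside the other controls, yet all siSFPQ libraries lay above all controls. The log2 change was 2.09 (SE 0.28, adjusted p = 1e-12).

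LINC00173 (ENSG00000196668, chromosome 12, 116533399 to 116536513, plus strand), an RNA studied in granulocytic cells and lung cancer, had 30.0, 25.8 and 23.9 CPM in siCtrl and 73.3, 82.2 and 60.8 in siSFPQ. The rise was 1.44 on the log2 scale (SE 0.16, adjusted p = 1.3e-18). LINC00702 (ENSG00000233117, chromosome 10, 4201141 to 4268709) went from 20.7, 19.7 and 26.9 to 46.6, 53.6 and 62.1 CPM, a log2 change of 1.28 (SE 0.18, adjusted p = 5.2e-12). In neither did the groups overlap.

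LINC00857 (ENSG00000237523, chromosome 10, 80207192 to 80235557, plus strand), studied in lung adenocarcinoma, had 56.4, 54.4 and 65.1 CPM in siCtrl and 138, 138 and 149 in siSFPQ. Its log2 change was 1.28 (SE 0.11, adjusted p = 2.5e-28), and the small row ENSG00000306666 that overlaps it (81 counts) rose by 1.41. LINC00920 (ENSG00000246898, chromosome 16, 66408504 to 66412135), near the endothelial cadherin gene CDH5, went from 18.6, 17.7 and 26.2 to 51.9, 51.7 and 45.3 CPM, a log2 change of 1.26 (SE 0.18, adjusted p = 9.8e-11).

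LINC00958 (ENSG00000251381, chromosome 11, 12961541 to 12989546, minus strand), also called BLACAT2 for its link to bladder cancer, combined a large rise with a moderate level. It had 192, 164 and 167 CPM in siCtrl and 412, 430 and 404 in siSFPQ, a log2 change of 1.25 (SE 0.07, adjusted p = 2.6e-62). The row RASSF10-DT that overlaps it, with 463 counts, is on the same strand and rose by 1.81. LINC00943 (ENSG00000189238, chromosome 12, 126723412 to 126746914) had 9, 11 and 9 counts in siCtrl and 15, 19 and 30 in siSFPQ. Its log2 change was 1.05 (SE 0.32, adjusted p = 0.0028), a call lost in DESeq2 (adjusted p = 0.119) and without siSFPQ replicate 3 (log2 change 0.75, adjusted p = 0.0883). Over 15 alternatives its adjusted p ran from 0.00142 to 0.119.

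**Figure D3:**
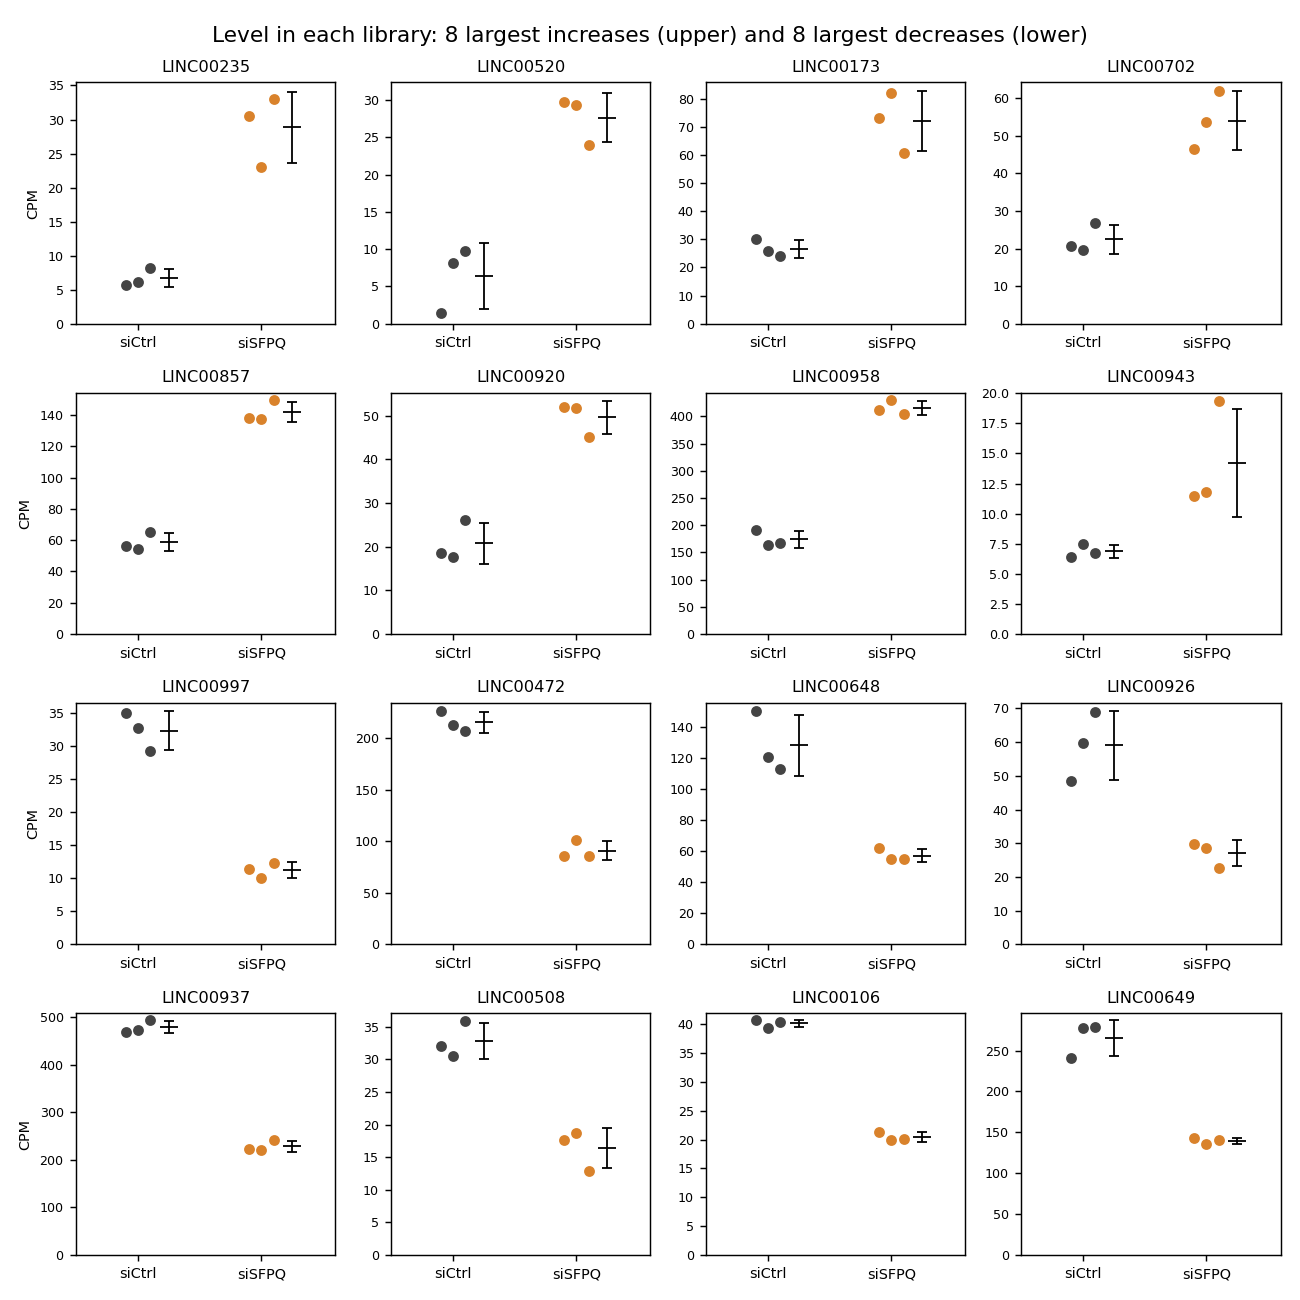
CPM in each library (linear axes from 0, a scale per panel) of the 8 largest increases and the 8 largest decreases with non-overlapping groups; points are libraries, and the marker beside each group is the mean ± SD (n = 3). LINC00235 runs from 5.71 to 8.23 CPM in siCtrl and from 23.0 to 33.0 in siSFPQ, and LINC00997 from 29.2 to 35.0 and from 9.97 to 12.3.

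The largest fall was that of LINC00997 (ENSG00000281332, chromosome 7, 32760279 to 32762924, plus strand), with 35.0, 32.6 and 29.2 CPM in siCtrl and 11.5, 9.97 and 12.3 in siSFPQ. Its log2 change was -1.52 (SE 0.23, adjusted p = 9e-10). The rows overlapping it also fell, ENSG00000294017 (720 counts) by 0.94 and ENSG00000293076 (546 counts) by 0.34 on the log2 scale.

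LINC00472 (ENSG00000233237, chromosome 6, 71187161 to 71420174, minus strand) is also called P53RRA, a p53-linked RNA that binds the stress-granule protein G3BP1. It had 227, 213 and 207 CPM in siCtrl and 85.5, 102 and 86.0 in siSFPQ, a log2 change of -1.24 (SE 0.09, adjusted p = 8.8e-38). Its span in the table holds exons of the coding gene OGFRL1. LINC00648 (ENSG00000259129, chromosome 14, 47682429 to 47901654, minus strand) fell from 151, 121 and 113 CPM to 61.9, 54.8 and 54.9, a log2 change of -1.17 (SE 0.11, adjusted p = 6.8e-23). Both had every siSFPQ library below every control.

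LINC00926 (ENSG00000247982, chromosome 15, 57300317 to 57307769, plus strand), typical of B lymphocytes, had 48.5, 59.8 and 68.8 CPM in siCtrl and 29.8, 28.7 and 22.6 in siSFPQ, a log2 change of -1.13 (SE 0.16, adjusted p = 8.7e-11). Of the other lymphoid RNAs on the list, MIR142HG and LINC00892 were at 0 and LINC00861 had 7, 12 and 7 counts against 3, 5 and 8. The part of other cells in this result was not tested. LINC00937 (ENSG00000226091, chromosome 12, 8244845 to 8453161, minus strand) had 470, 474 and 494 CPM against 223, 220 and 242, a log2 change of -1.07 (SE 0.07, adjusted p = 3.4e-52). Of the rows overlapping it, ENSG00000296172 (235 counts) fell by 1.35 and LINC02449 (239 counts) had a change of -0.34 that did not pass.

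LINC00508 (ENSG00000256971, chromosome 12, 127861408 to 127983863) had 32.1, 30.6 and 35.9 CPM against 17.6, 18.7 and 12.9, a log2 change of -0.999 (SE 0.21, adjusted p = 1.5e-05), and the overlapping LINC02393 (82 counts) fell by 1.18. LINC00106 (ENSG00000292341) is listed on chromosome Y at 1392679 to 1400524, in the pseudoautosomal region that X and Y share. It went from 40.2 ± 0.667 to 20.5 ± 0.807 CPM (SD, n = 3 each), a log2 change of -0.97 (SE 0.19, edgeR adjusted p = 2.9e-06). LINC00649 (ENSG00000237945, chromosome 21, 33915534 to 34039762, plus strand), which starts 446 bases from the ATP synthase gene ATP5PO and overlaps its coding exons on the other strand, had 240, 278 and 279 CPM against 143, 136 and 141. Its log2 change was -0.93 (SE 0.08, adjusted p = 1.9e-27).

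Among the 6 most abundant members, LINC00963, LINC00839, LINC00973 and LINC00667 (described with its neighbour) rose, and LINC00662 and LINC00115 fell. LINC00963 (also called MetaLnc9, ENSG00000204054, chromosome 9, 129476946 to 129513686) had 1106, 995 and 1044 CPM in siCtrl and 1245, 1241 and 1342 in siSFPQ, a log2 change of 0.28 (SE 0.05, adjusted p = 1e-07), and the row ENSG00000286078 that overlaps it (2110 counts) rose by 0.35. LINC00839 (ENSG00000185904, chromosome 10, 42475476 to 42495331) went from 691, 708 and 727 to 1000, 968 and 974 CPM, a change of 0.47 (SE 0.05, adjusted p = 4.5e-17). The listed start of LINC00973 is 643 bases from that of DCBLD2, which runs the other way, but its RefSeq start lies 13520 bases from the listed one. LINC00973 went from 452, 419 and 439 to 593, 573 and 555 CPM, a change of 0.39 (edgeR adjusted p = 1e-09), and its overlapping row ENSG00000298505 (1793 counts) rose by 0.24. These 3 changes were smaller than those of the leading scarce members, but none of their groups overlapped.

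LINC00662 (ENSG00000261824, chromosome 19, 27681072 to 27793977), studied in several carcinomas, fell from 821, 669 and 673 CPM to 493, 472 and 497, a log2 change of -0.57 (SE 0.06, adjusted p = 6.2e-21). Of the rows overlapping it, ENSG00000261770 (636 counts) fell by 0.60 and LINC02987 (1431 counts) had a change of 0.12 that did not pass. LINC00115 fell from 559, 573 and 555 to 455, 464 and 458 CPM, a change of -0.29 (SE 0.06, adjusted p = 7.1e-06). It overlaps ENSG00000293331, which had 3770 counts and fell by 0.65, LINC01128, which had 1496 and rose by 0.40, and LINC01409, which had 113 and fell by 0.73.

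Of 12 numbered RNAs most studied for high levels in tumours, 9 were members, of which 5 rose, 2 fell and 2 did not pass, with a median log2 change of 0.28. Among tested genes with at least 60 counts, 24.7% rose, 24.3% fell and the median was 0.01. The rises were LINC00520, LINC00958, LINC00963, LINC00460 and LINC00941. LINC00460 had 146, 138 and 152 CPM in siCtrl and 221, 233 and 219 in siSFPQ, a log2 change of 0.63 (SE 0.09, adjusted p = 1.8e-12). LINC00941 had 118, 140 and 141 CPM in siCtrl and 199, 183 and 158 in siSFPQ, a change of 0.43 (SE 0.09, edgeR adjusted p = 1.1e-05). Its listed start is 123 bases from the gene CAPRIN2, but its RefSeq start lies 40607 bases from the listed one. LINC00511 fell slightly, from 141, 139 and 127 CPM to 116, 122 and 102, a change of -0.26 (SE 0.10, adjusted p = 0.019). Of the rows overlapping it, SOX9-AS1 (86 counts) rose by 1.03 and ENSG00000263680 (61 counts) had a change of -0.22 that did not pass. The call of LINC00511 was lost with plain totals, with no filter, in DESeq2, and without siCtrl replicate 1 or siSFPQ replicate 3, and its adjusted p ran from 0.0105 to 0.195 over the alternatives. The list mixes RNAs chosen for reports in many tumours, and its members moved in both directions.

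Of 5 numbered RNAs most studied for low levels in tumours, 2 were members and both fell, LINC00472 and LINC00641, where 24.3% of tested genes with at least 60 counts fell. LINC00641 had 54.9, 56.4 and 50.1 CPM in siCtrl and 35.1, 37.4 and 31.0 in siSFPQ, a log2 change of -0.64 (SE 0.16, adjusted p = 0.00021). Of 9 numbered RNAs with a reported small peptide, the 3 members, LINC00467, LINC00665 and LINC00689, did not pass. LINC00467, source of the peptide ASAP, had 62.9 ± 9.02 CPM in siCtrl and 65.4 ± 0.717 in siSFPQ (SD, n = 3), a log2 change of 0.06 (edgeR adjusted p = 0.72). LINC00665, source of CIP2A-BP, had 36.2 ± 8.51 and 44.1 ± 2.89 CPM, a change of 0.27 that did not pass (edgeR adjusted p = 0.16) except without siCtrl replicate 2 (0.45, adjusted p = 0.0476). Its overlapping row ENSG00000267053 (322 counts) had a change of 0.08 that did not pass, as did ENSG00000287033 over LINC00467 (67 counts, -0.13). LINC00689, the scarcest, had 12, 11 and 4 counts against 12, 13 and 10. The only member among 3 host RNAs of small or circular RNAs was LINC00632, from which the circular RNA CDR1-AS is made. It fell from 169 ± 18.4 to 132 ± 4.23 CPM, a change of -0.36 (SE 0.09, edgeR adjusted p = 0.00026). The circle was not measured separately, and the overlapping row CDR1 (97 counts) had a change of -0.29 that did not pass.

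Head-to-head or neighbouring members gave 4 pairs within 10 kb. In the pair LINC00526 (ENSG00000264575, chromosome 18, 5232876 to 5239390, minus strand) and LINC00667 (ENSG00000263753, chromosome 18, 5237826 to 5290345, plus strand), whose spans overlap by 1565 bases, both RNAs rose. LINC00526 had 79.2, 87.6 and 80.8 CPM in siCtrl and 168, 160 and 171 in siSFPQ, a log2 change of 1.01 (SE 0.10, adjusted p = 6.7e-22). LINC00667 had 353, 376 and 357 CPM against 658, 599 and 663, a change of 0.82 (SE 0.06, adjusted p = 2.2e-38). LINC00526 was chosen for this description after its values were seen.

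LINC00943 and LINC00944 overlap by 23503 bases on opposite strands, and both were highest in siSFPQ replicate 3. LINC00944 had 34.3, 29.2 and 30.7 CPM in siCtrl and 36.7, 39.2 and 55.6 in siSFPQ, a log2 change of 0.49 (adjusted p = 0.011). That call was lost in DESeq2 (adjusted p = 0.197), without siCtrl replicate 2 (0.42, adjusted p = 0.0638) and without siSFPQ replicate 3 (0.28, adjusted p = 0.262). LINC00163 and LINC00165 lie on the same strand with 275 bases between them and both rose, by 0.81 (adjusted p = 0.032) and 0.44 (adjusted p = 0.0012). The call of LINC00163 was lost in DESeq2, with no filter, with the stricter filter and without each of the 6 libraries (adjusted p from 0.0193 to 0.269 over the alternatives), and that of LINC00165 in DESeq2 (adjusted p = 0.0907) and without siSFPQ replicate 2 (0.30, adjusted p = 0.0771). LINC00574 and LINC00242 overlap by 8790 bases, and in both the highest library was siSFPQ replicate 1. LINC00574 rose by 0.89 (adjusted p = 0.00091; 0.0672 in DESeq2). LINC00242, with a change of 0.74, did not pass (adjusted p = 0.063), but did with plain totals (0.0414) and without siSFPQ replicate 2 (0.0256). Without siSFPQ replicate 1 its change was 0.47 (adjusted p = 0.35). Because strands were not separated, overlapping members may share reads. The values of LINC00526 and LINC00667, of LINC00943 and LINC00944, or of LINC00574 and LINC00242 are therefore not taken as independent.

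**Figure D4:**
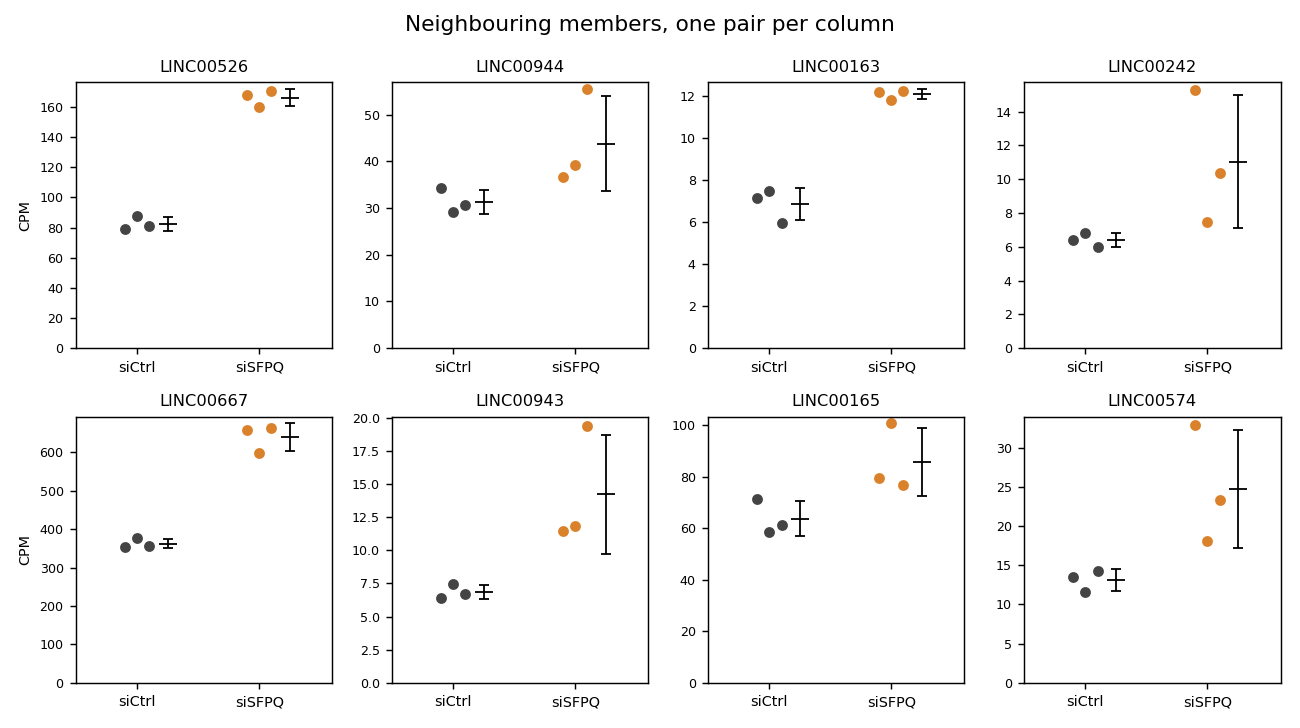
CPM of the members of the 4 neighbouring pairs in each library (points) with the mean ± SD (n = 3) beside each group, a pair per column. LINC00526 and LINC00667 are higher in every siSFPQ library than in every control, and LINC00943 and LINC00944 are both highest in siSFPQ replicate 3.

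By length of the gene in the genome, falls were most frequent among the longest members and rises among the shorter ones. Of the 29 members spanning 100 kb or more, 6 rose and 14 fell, with a median log2 change of -0.22. Of the 16 under 10 kb, 8 rose and 5 fell (median 0.33), and of the 38 from 10 to 100 kb, 12 rose and 5 fell (median 0.22). Over all tested genes with at least 60 counts the shares were 25.6% higher and 22.6% lower under 10 kb, 25.2% and 24.1% from 10 to 100 kb, and 18.9% and 31.9% at 100 kb or more. This split by span was chosen after the values were seen and the difference between classes was not tested.

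The 14 long falls included LINC00299, the longest member at 673 kb, with 38.5, 31.3 and 38.9 CPM in siCtrl and 19.9, 26.8 and 14.9 in siSFPQ, a log2 change of -0.81 (adjusted p = 0.00019). LINC00470 went from 358, 332 and 316 to 226, 217 and 250 CPM, a change of -0.54 (adjusted p = 1.4e-12). Of the rows overlapping it, ENSG00000263551 (980 counts) fell by 0.81 and ENSG00000298259 (186 counts) had a change of -0.46 that did not pass. The 6 long rises were LINC00574, LINC00623, LINC00941, LINC00869, LINC00944 and LINC00973. The rise of LINC00623 was 0.21 with overlapping groups (adjusted p = 0.041), and its call was lost in 10 of 15 alternatives, with an adjusted p of up to 0.295. Its overlapping row ENSG00000300262 (215 counts) had a change of 0.47 that did not pass. The median of the long class stayed negative under every alternative, from -0.299 to -0.157. These refits draw on the same libraries from which the split was chosen, so they do not test it. The Spearman correlation of span and log2 change was -0.41 over members and -0.0454 over tested genes with at least 60 counts.

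**Figure D5:**
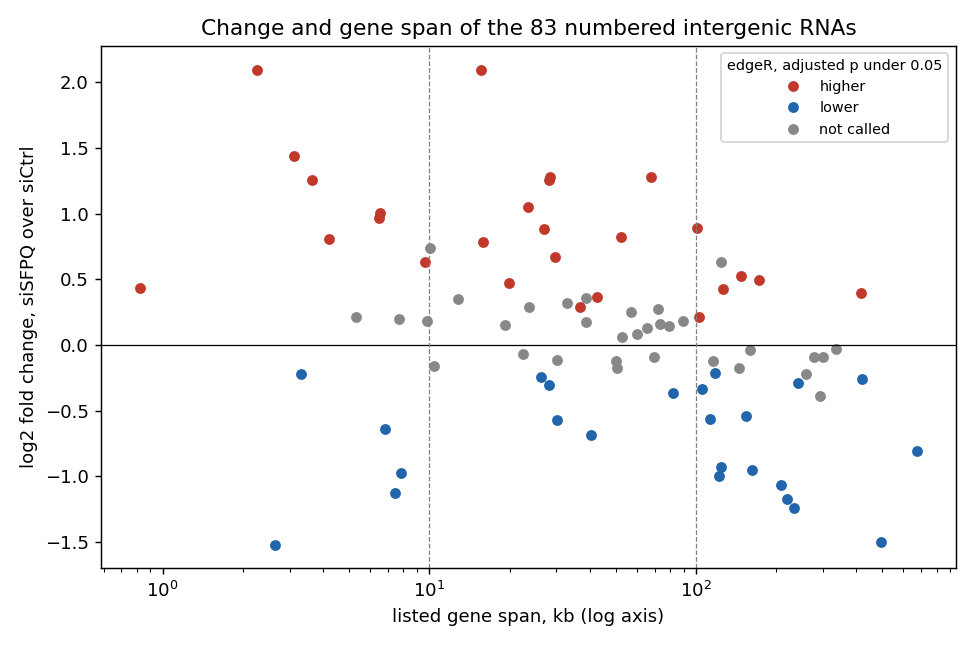
Log2 fold change of each member against its listed span in the genome (log axis), coloured by call. Of members at 100 kb or more, 14 of 29 fell and 6 rose, where 8 of the 16 under 10 kb rose.

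Of the 51 members outside the naming rule, 12 rose by 0.21 to 1.01 on the log2 scale, 11 fell by 0.21 to 1.5, and 28 did not pass, with changes from -0.39 to 0.74. LINC00856 had the largest fall of these, -1.5 (SE 0.39, adjusted p = 0.0004), on 9, 24 and 13 counts in siCtrl and 2, 4 and 11 in siSFPQ, with overlapping groups. That call was lost in DESeq2 (adjusted p = 0.0787) and without siCtrl replicate 2 (-1.08, adjusted p = 0.0656), and the change was -2.36 without siSFPQ replicate 3 (adjusted p = 3.72e-05). LINC00339 rose from 31.1 ± 2.29 to 61.4 ± 6.42 CPM (SD, n = 3, edgeR adjusted p = 7e-09), and its 3 overlapping rows, CDC42-AS1 (307 counts), ENSG00000285959 (156) and LINC01635 (84), rose by 1.01, 1.04 and 0.76. LINC00863 rose from 88.4 ± 1.36 to 153 ± 1.53 (edgeR adjusted p = 1.3e-13). It overlaps NUTM2A-AS1, which had 4602 counts against its own 1052 and rose by 0.15. LINC00408, whose window is printed above, had 55.7, 46.9 and 42.6 CPM in siCtrl and 31.3, 31.8 and 34.3 in siSFPQ, a change of -0.58 (adjusted p = 0.0017), lost in DESeq2 (adjusted p = 0.0759). It overlaps ENSG00000231358 (406 counts), which fell by 0.91. Of the 9 members whose listed start is within 1 kb of a coding gene that runs the other way, 3 rose, 1 fell and 5 did not pass. Among tested genes with at least 60 counts, 24.7% rose and 24.3% fell. The RefSeq starts of LINC00571, LINC00867, LINC00941 and LINC00973, which are among the 9, lie 207027, 15671, 40607 and 13520 bases from their listed starts.

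The members nearest to no change were LINC00877, at 25.7 and 25.1 CPM in the 2 groups (log2 change -0.03, adjusted p = 0.91), LINC00862, at 307 ± 29.7 and 299 ± 12.1 CPM (-0.04, edgeR adjusted p = 0.66), and LINC00467. In LINC00862, the siCtrl libraries ran from 281 to 339 CPM and enclosed all siSFPQ values. Its overlapping row ENSG00000230623 (158 counts) fell by 1.03.

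Promoter windows were in the RefSeq table for 61 of the 83 members. The GC box (GGGCGG) was matched in 25 of them, 41.0%, against 44.6% of all 27305 promoter windows of that length, and the CCAAT box in 26, 42.6%, against 35.7%. The TATA box (TATAAA) was matched in 9.84% of member windows and 12.0% of all, the cAMP response element (TGACGTCA) in 3.28% and 1.98%, and the E-box (CACGTG) in 4.92% and 7.43%. The AP-1 site (TGANTCA) was matched in 9 windows, 14.8% against 7.76% of all, and these were 5 of the 21 rises with a window, 0 of the 12 falls and 4 of the 28 that did not pass. Only 34 of the 61 windows lie within 1 kb of the start listed in the table, and of the 9 with the AP-1 site only those of LINC00242 and LINC00339 do. Both strands were searched, and a match is a description of letters and not of binding.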

How the data were processed

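RNA-seq was done on 6 libraries of U-2OS cells given actinomycin D, 3 siCtrl and 3 siSFPQ, from polyA-selected total RNA with a stranded kit, per the labels' protocols. The authors deposited 1 table of raw read counts per gene for all 6 libraries; the aligner, counter and genome build are not given in the sources used here. Sample columns were matched by name, with 0 unused. Gene positions are as the table lists them; overlaps with coding exons came from GENCODE release 29 and promoter windows from RefSeq (GRCh38.p14). Counts were analysed in R 4.3.3 with edgeR 4.0.16 (filterByExpr, TMM, robust quasi-likelihood test on the group alone, two-sided), fitted on the whole table, with Benjamini-Hochberg adjustment over the 6325 genes tested and calls at an adjusted p under 0.05. A standard error is the size of the log2 change divided by the square root of F. The edgeR fit was tested on simulated counts with known changes. Alternatives were other normalisations and filters, DESeq2 1.42.0, limma-voom 3.58.1, a fit with replicate number as a block, and fits with each library removed in turn. The replicate libraries of a group differed beyond sampling noise, so none was treated as a duplicate.

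The members and the lists were chosen with earlier results of these data known. Named members were the 8 largest rises and 8 largest falls with non-overlapping groups, the 6 with the highest mean CPM, list members, and the 3 with mean CPM of at least 5 nearest to no change; the others are given by range and counts, and those described beyond this rule were chosen after their values were seen.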

Additional observations from a re-analysis of the deposited data

How the results depend on the processing

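The 26 rises and 24 falls were 31 and 21 with plain library totals, 23 and 21 with no filter, 24 and 24 with the stricter filter, 25 and 24 in limma-voom, 18 and 16 in DESeq2, and 22 and 21 of 73 members without coding-exon overlap. At a log2 change of at least 1 they were 9 and 6. Leaving out each library in turn gave 22 to 27 rises and 21 to 24 falls. The median log2 change of members, 0.14, was 0.206 with plain totals and 0.0715 to 0.132 with a library left out. With the replicate number as a block, 26 rose and 24 fell and all 50 calls were kept. Same-numbered libraries did not deviate together (correlations of -0.0047, 0.00097 and 0.0104), and differently numbered ones ran from -0.0217 to 0.0214. No pairing by number was seen, but values this near 0 cannot exclude a shared culture or batch. Of the 50 calls, 34 kept an adjusted p under 0.05 in the same direction in every refit that included them; the demand for a log2 change of at least 1 is not among these refits, and members with coding-exon overlap were not in the refit of the other 73. DESeq2 lost 16 of the 50 calls and gained 0. Of 477 values of 32 named members under the alternatives, 469 kept their direction and call, 0 reversed, 7 lost the call (LINC00943 and LINC00511) and 1, LINC00665 without siCtrl replicate 2 (0.45, edgeR adjusted p = 0.0476), gained it. The cause was not tested. Members of under 20 counts per library limit what a fold can show.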
